A study of Mus musculus with 12 samples.

Results

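Major histocompatibility complex (MHC) class I molecules and the genes that load them with peptide were followed in mouse retina after laser photocoagulation. The 10 genes described are H2-K1, H2-D1, H2-T23, B2m, Tap1, Tap2, Tapbp, Psmb8, Psmb9 and Nlrc5, taken by gene symbol from tables of 54367 genes, and each was found in the tables of both days. Wildtype C57BL/6 mice aged 8 to 12 weeks were anaesthetised with hydrated chloral, their pupils were dilated, and the right retina was burned with a 532 nm laser in spots of 75 µm lasting 0.1 s. The left eye of the same animals was not lasered and served as control, so the controls also came from mice that had carried an injured eye. Poly(A) RNA of the retina was sequenced on day 3 and on day 7, in 4 groups of 3 libraries: control day 3, laser day 3, control day 7 and laser day 7. The labels do not state how many retinas went into a library, and the p-values reflect the spread among these libraries, which may be technical in part.

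Class I molecules consist of a polymorphic heavy chain, here H2-K1 and H2-D1, held by the light chain β2-microglobulin, the product of B2m. H2-T23 encodes the heavy chain of Qa-1, a non-classical class I molecule read by natural killer cells and some T cells. Peptides are cut by the proteasome, in which the inducible subunits Psmb8 and Psmb9 can replace constitutive ones, are carried into the endoplasmic reticulum by the Tap1-Tap2 transporter, and are fitted to the heavy chain with the help of tapasin, encoded by Tapbp. Nlrc5 is a transcriptional coactivator of class I genes, and interferons are known inducers of the whole set. The healthy neural retina is known for low class I expression.

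The libraries held 9281952 to 12515947 reads assigned to genes on day 3 and 23886193 to 31092251 on day 7, as recovered from the deposited values. Values are a length-scaled signal per gene that the authors name TPM, and a gene of 1 kb with 3 reads reached a signal of at least 0.445 and at most 0.605 in the earlier libraries and of 0.292 to 0.380 in the later ones. Rod and cone markers were abundant in each library, with a summed signal of 19811 to 24629 in controls and 8285 to 21335 after laser on day 3, and of 48507 to 51787 and 38824 to 45791 on day 7. Lasered replicate 1 of day 3 stood apart from the other libraries of that day: its rod and cone sum was the 8285, and its 6 neutrophil markers summed to 1003, against 3.18 and 48.9 in the other lasered retinas and 2.20 to 3.22 in controls. For day 3 the 10 genes, the lists of the pathway and the ratios between proteasome subunits are therefore also given without it. Leaving out each library in turn was planned for the 10 genes and the ratios. Giving this fit apart from the others, and fitting the lists without it, were choices made after seeing the data. With any other library of day 3 left out, 0 of the 10 genes had an adjusted p under 0.05 by limma.

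All 10 genes had higher signal in each of the 3 lasered retinas than in any control on day 3, with a median difference of 2.76 on the log2(value + 1) scale against 0.16 for all tested genes. The size was uneven: over the 10 genes the median ratio to the control mean was 51.3 in lasered replicate 1, 6.59 in replicate 2 and 5.80 in replicate 3. By limma with Benjamini-Hochberg adjustment over 16786 genes, 0 of the 10 passed an adjusted p of 0.05, where 0.143% of tested genes rose. Voom on the recovered reads also gave 0, where 0.0774% of tested genes rose. At an unadjusted p under 0.05, 9 of 10 were higher, where 20.7% of all tested genes were. Groups without overlap, with laser higher, made up 27.7% of tested genes. Without lasered replicate 1, 8 of 9 tested genes rose (adjusted p from 0.00460 to 0.0166), where 1.7% of tested genes did. Tap2 had an adjusted p of 0.0893 in that fit and Nlrc5 fell under the filter on low values.

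On day 7 the estimated differences were lower and the 3 lasered retinas lay closer together, at median ratios to the control mean of 2.04, 2.80 and 2.55. Of the 10 genes, 9 passed the filter of a mean signal of 1, and 8 of these had no overlap between lasered and control retinas, with Tapbp as the exception. The median difference was 1.06, against 0.06 for all tested genes. One gene, H2-K1, rose at an adjusted p under 0.05 (1 of 9, where 0.237% of 15592 tested genes rose), and 7 of 9 were higher at an unadjusted p under 0.05, against 3.14% of tested genes. Groups without overlap and with laser higher occurred in 6.78% of tested genes. These values are from the main fit, which used no pairs. An alternative fit took the numbers of day 7 as pairs, a choice inferred from the same libraries and not borne out for replicate 3. With the replicate number as a block, 3 of 9 rose, where 0.334% of tested genes did. These were H2-K1 (adjusted p = 0.0385), B2m (0.0465) and Psmb8 (0.0444).

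**Figure D1:**
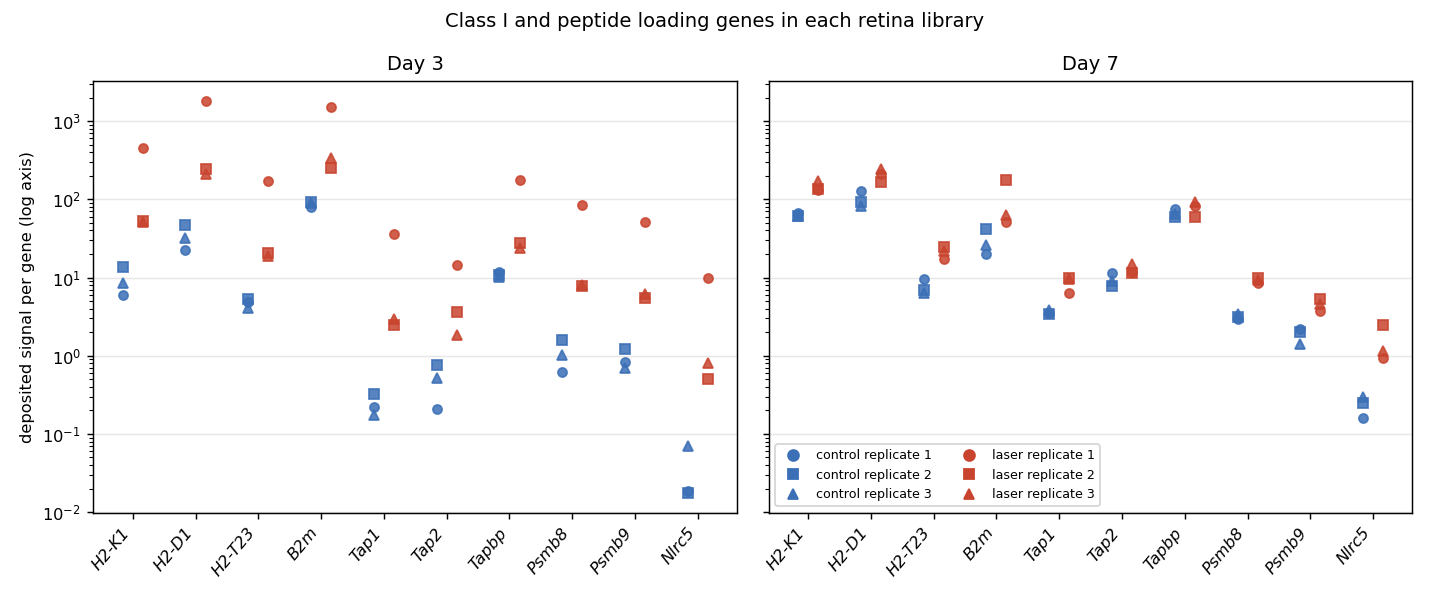
Signal of each gene (log axis) in each library on day 3 (left) and day 7 (right); blue marks are controls and red marks lasered retinas, with the shape giving the replicate number. On day 3 each red mark lies above the blue marks of its gene and the red circles, lasered replicate 1, lie highest; on day 7 the groups overlap for Tapbp.

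Heavy chains and β2-microglobulin were described first. H2-K1 (ENSMUSG00000061232, mm10, chr17:33996017-34000333, minus strand) had a signal of 5.91, 13.6 and 8.47 in the control retinas of day 3 and of 454, 53.4 and 51.0 in the lasered ones. Lasered replicates 2 and 3 were nearly equal and lay well above the highest control. The difference was 3.46 (SE 0.81, adjusted p = 0.0940), and 2.43 (SE 0.30, adjusted p = 0.0134) without lasered replicate 1. On day 7 its signal was 66.5, 61.6 and 60.3 in controls and 133, 137 and 170 after laser, with little spread within either group. This was the gene that rose on day 7, by 1.20 (SE 0.14, adjusted p = 0.0285). Leaving out a library lost that call for control replicate 1 (adjusted p = 0.149), control replicate 2 (0.164), control replicate 3 (0.278), lasered replicate 1 (0.0850) and lasered replicate 3 (0.163), while the difference stayed between 1.09 and 1.27. Calls over all tested genes fell too. From 0.237% in the main fit, the share that rose went to 0.0572%, 0.0387%, 0%, 0.0701% and 0% in those fits, in the same order.

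H2-D1 (ENSMUSG00000073411, chr17:35262730-35267499, plus strand), the other classical heavy chain, read 22.2, 47.4 and 31.8 in controls and 1826, 246 and 208 in lasered retinas on day 3. The lowest lasered value lay well above the highest control. Its difference of 3.77 (SE 0.79, adjusted p = 0.0915) became 2.77 (SE 0.29, adjusted p = 0.00852) without lasered replicate 1. H2-D1 of day 7 was 127, 91.1 and 82.1 without laser and 213, 167 and 246 with it, a difference of 1.06 (SE 0.21, adjusted p = 0.252). H2-T23 (ENSMUSG00000067212, chr17:36029773-36032855, minus strand) had 4.91, 5.32 and 4.06 against 174, 20.7 and 19.0 on day 3 (2.88, SE 0.78, adjusted p = 0.109), and 1.86 (SE 0.16, adjusted p = 0.00460) without lasered replicate 1. On day 7 it had 9.52, 6.98 and 6.32 against 17.5, 24.8 and 21.7 (1.38, SE 0.22, adjusted p = 0.108). The 3 heavy chain genes share sequence with other class I genes: 9.63% of the 50-base windows of H2-K1 transcripts, 12.8% of those of H2-D1 and 13.6% of those of H2-T23 occur in another gene, so how the counting split such reads leaves these values uncertain.

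B2m (ENSMUSG00000060802, chr2:122147686-122153083, plus strand) lies outside the MHC and had the highest control signal of the set on day 3, 80.2, 91.1 and 89.1, against 1532, 248.5 and 341 after laser. Each lasered retina exceeded the controls (2.53, SE 0.61, adjusted p = 0.0967), and the difference was 1.74 (SE 0.17, adjusted p = 0.00653) without lasered replicate 1. On day 7 the values were 20.04, 41.3 and 26.0 in controls and 51.6, 179 and 63.5 in lasered retinas. Control and lasered replicate 2 were the highest of their groups, and the difference was 1.56 with SE 0.48 (adjusted p = 0.777) and SE 0.19 (adjusted p = 0.0465) with the replicate block. As a description chosen after the values were seen, the summed signal of H2-K1 and H2-D1 over that of B2m was 0.350, 0.670 and 0.453 in the controls of day 3 and 1.49, 1.20 and 0.758 in its lasered retinas. On day 7 the same ratio was 9.67, 3.69 and 5.48 in controls and 6.69, 1.71 and 6.55 after laser, with overlap between the groups.

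Promoters of these genes are shown because the heavy chains and β2-microglobulin, although on different chromosomes, are known to be switched on through sites for NF-κB and interferon-regulated factors. RefSeq promoter sequences (GRCm38.p6, 250 bases before to 50 after the start) matched 8 of the 10 genes. The motifs were chosen after these promoters had been read, were searched on both strands, and may overlap one another. In the H2-K1 sequence, read 5′ to 3′ on the minus strand, capitals mark the letters of a κB site and of an interferon-stimulated response element; in that of B2m, on the plus strand, they mark the same kinds of match in the opposite order.
H2-K1, chr17:34000348-34000597: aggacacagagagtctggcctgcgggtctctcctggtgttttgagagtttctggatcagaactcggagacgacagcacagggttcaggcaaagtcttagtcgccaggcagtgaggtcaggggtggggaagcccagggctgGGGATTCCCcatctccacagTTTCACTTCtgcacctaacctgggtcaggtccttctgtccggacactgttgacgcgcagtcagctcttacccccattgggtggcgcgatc
B2m, chr2:122147437-122147685: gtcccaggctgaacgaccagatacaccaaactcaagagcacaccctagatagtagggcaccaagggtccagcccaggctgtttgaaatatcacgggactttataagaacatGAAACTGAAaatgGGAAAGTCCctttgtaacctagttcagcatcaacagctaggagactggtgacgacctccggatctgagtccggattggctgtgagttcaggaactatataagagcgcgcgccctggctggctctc

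The stretches that hold these sites are set side by side below for 4 genes, each on its own gene's strand, with the matched letters in capitals.
H2-K1, chr17:34000428-34000457: GGGATTCCCcatctccacagTTTCACTTCt
H2-D1, chr17:35262924-35262953: GGGATTCCCcatctcctcagTTTCACTTCt
H2-T23, chr17:36032805-36032834: tcctactgctTTCTCTTTCataaagacaca
B2m, chr2:122147548-122147577: GAAACTGAAaatgGGAAAGTCCctttgtaa
The H2-K1 and H2-D1 stretches are identical at 29 of 30 positions and differ by A17T, counted from 1 at the 5′ end of the H2-K1 stretch. The κB site, searched as GGGATTCCC, was in 2 of the 8 promoters, H2-K1 and H2-D1, and in 0.353% of 32851 promoters of the same length. GGACTTTCC, another κB site, was in B2m and in 0.344% of promoters. The response element with the letters GAAANNGAA was in H2-T23 and B2m and in 8.56% of promoters, and the form GAANNGAAA, with a gap placed 1 base earlier, in H2-K1 and H2-D1 and in 7.52%. TGACG, the core of the X2 box through which class I promoters bind CREB and ATF factors, was in 5 of the 8 (H2-K1, H2-D1, B2m, Tap1 and Psmb9) and in 20.8% of promoters, and CCAAT was in 7 of the 8 and in 37.4%. These are matches of letters and no binding was measured.

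The inducible proteasome subunits and the transporter lie together in the MHC. Psmb9 (ENSMUSG00000096727, chr17:34181988-34187764, minus strand), Tap1 (ENSMUSG00000037321, chr17:34187553-34197225, plus strand), Psmb8 (ENSMUSG00000024338, chr17:34197721-34201454, plus strand) and Tap2 (ENSMUSG00000024339, chr17:34203527-34216321, plus strand) fill 34334 bases. Psmb9 and Tap1 overlap by 212 bases on opposite strands, and as no source used here states whether counting used strand, reads of that overlap cannot be assigned to either.

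Psmb8, the inducible counterpart of the chymotrypsin-like subunit Psmb5, had a signal of 0.619, 1.59 and 1.02 in the controls of day 3 and 83.5, 7.88 and 7.94 in its lasered retinas. Lasered replicates 2 and 3 were nearly equal, both above the highest control. The difference was 3.21 (SE 0.83, adjusted p = 0.103), and 2.13 (SE 0.23, adjusted p = 0.00924) without lasered replicate 1. On day 7 Psmb8 had 2.97, 3.17 and 3.45 in controls and 8.45, 9.85 and 9.26 in lasered retinas, with no overlap (1.28, SE 0.20, adjusted p = 0.0922; 0.0444 with the replicate block). Psmb9, the inducible counterpart of Psmb6, read 0.829, 1.21 and 0.702 against 51.7, 5.40 and 6.18 on day 3 (2.82, SE 0.75, adjusted p = 0.108; 1.83 and 0.00924 without lasered replicate 1). On day 7 it read 2.17, 2.03 and 1.43 against 3.69, 5.31 and 4.53 (0.94, SE 0.24, adjusted p = 0.520).

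Set against their constitutive counterparts in the same library, the inducible subunits stood higher in each lasered retina than in any control in 5 of 6 comparisons. Psmb8 and Psmb9 by themselves already had no overlap on either day. Among single genes 27.7% had no overlap with laser higher on day 3 and 6.78% on day 7, and no such share was computed for ratios. Psmb8 was 0.967%, 1.71% and 1.26% of Psmb5 in the controls of day 3 and 42.4%, 4.92% and 5.92% in lasered retinas. Psmb9 was 0.213%, 0.375% and 0.20002% of Psmb6 in those controls and 14.6%, 1.62% and 1.69% after laser. Neither ratio overlapped between the groups, even though Psmb5 itself was higher after laser on day 3 (64.1, 93.1 and 80.5 against 197, 160 and 134, a difference of 1.04, adjusted p = 0.0883). Psmb10, the third inducible subunit, was 69.2%, 48.3% and 65.6% of Psmb7 in controls and 359%, 110% and 105% in lasered retinas. On day 7 Psmb8 over Psmb5 was 0.602%, 0.933% and 0.906% against 1.83%, 3.07% and 2.65%, and Psmb9 over Psmb6 was 0.774%, 0.990% and 0.590% against 1.32%, 2.27% and 1.88%. Psmb10 over Psmb7 overlapped on day 7, at 52.5%, 40.9% and 45.6% against 60.1%, 41.8% and 74.4%. As differences of log2(value + 1) between the subunits, the change was 2.17, 2.83 and 1.39 on day 3 and 1.38, 0.88 and 0.30 on day 7 for Psmb8, Psmb9 and Psmb10 in that order. By a two-sided exact permutation test p was 0.1, the smallest that 3 against 3 libraries allow, for 5 of the 6 ratios and 0.3 for Psmb10 on day 7 (0.12 and 0.3 adjusted over the 6). Without lasered replicate 1 the changes of day 3 were 1.23, 1.85 and 0.81 in the same order. By the exact permutation test p was then 0.2 each, the smallest that 2 against 3 libraries allow. The 1.23 of Psmb8 was below its 1.38 of day 7, but this order depends on the added 1. Psmb8 was only 0.619 to 1.59 in the controls of day 3, where the added 1 shrinks the change. The percents above have no added 1 and put the change of Psmb8 on day 3 above that on day 7.

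**Figure D2:**
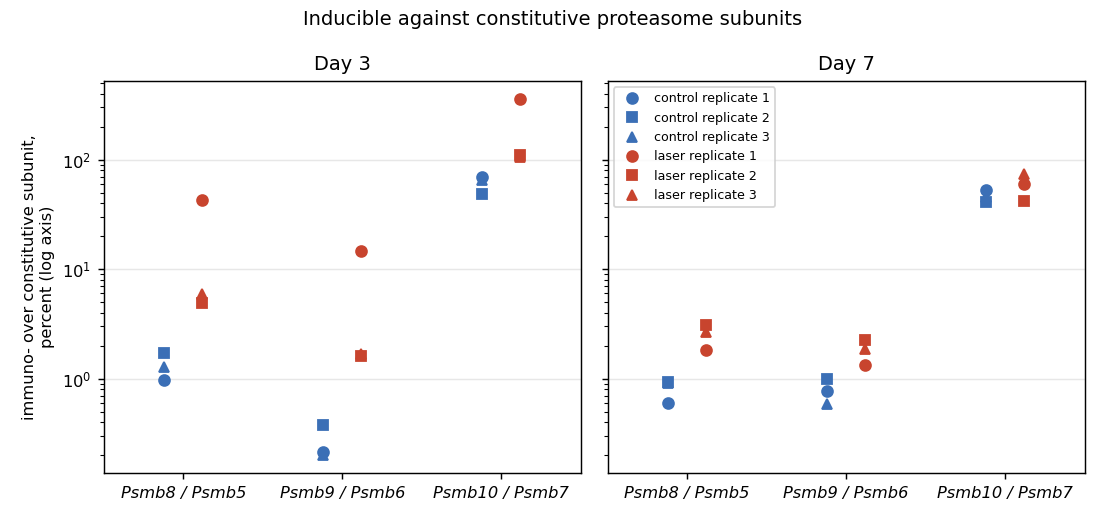
Signal of each inducible proteasome subunit as a percent of its constitutive counterpart in the same library (log axis) on day 3 (left) and day 7 (right), with controls in blue and lasered retinas in red. The groups are apart in 5 of the 6 comparisons and overlap for Psmb10 over Psmb7 on day 7.

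The transporter and its link to the heavy chain came next. Tap1, which forms the peptide transporter with Tap2, was near the limit of detection in the controls of day 3, with 0.223, 0.326 and 0.173 from 8, 12 and 5 reads. The lasered retinas had 36.3, 2.495 and 2.91, from 990, 91 and 83 reads, all above the controls. The difference was 2.69 (SE 0.84, adjusted p = 0.132), and 1.58 (SE 0.21, adjusted p = 0.0162) without lasered replicate 1. The scale of log2(value + 1) understates the change of a gene this low: with a pseudocount of 0.1 the difference was 4.30 for Tap1, 3.11 for Tap2 and 3.81 for H2-D1, so the order of sizes among the genes depends on it. On day 7 Tap1 had 3.52, 3.39 and 3.87 in controls and 6.43, 9.93 and 9.51 in lasered retinas (1.048, SE 0.23, adjusted p = 0.346). Tap2 on day 3 was 0.210, 0.752 and 0.522 in controls against 14.6, 3.64 and 1.83 after laser (1.996, SE 0.58, adjusted p = 0.1197; 1.29 and 0.0893 without lasered replicate 1). On day 7 it was 11.4, 7.86 and 9.12 against 11.6, 11.6 and 14.8. The lowest lasered and the highest control value of Tap2 on day 7 were nearly equal (0.39, SE 0.21, adjusted p = 1.00). Tap2 overlaps Gm20496 and Gm15821 on the other strand, Psmb8 overlaps Gm20496, H2-T23 overlaps A930015D03Rik, B2m overlaps Patl2 and Nlrc5 overlaps 9330175E14Rik, each on the opposite strand, and reads of such overlaps cannot be told apart.

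Tapbp (ENSMUSG00000024308, chr17:33915899-33929292, plus strand), whose product tapasin bridges the transporter and the heavy chain, read 11.9, 10.7 and 10.03 in the controls of day 3 and 175, 27.9 and 23.8 after laser. The controls were close together and each lasered retina was above them (2.08, SE 0.69, adjusted p = 0.144; 1.17, SE 0.15 and adjusted p = 0.0166 without lasered replicate 1). On day 7 the groups overlapped, with 74.2, 58.8 and 64.9 in controls and 83.1, 58.7 and 91.2 in lasered retinas (0.21, SE 0.19, adjusted p = 1.00). Tapbp overlaps Zbtb22 on its own strand and Gm19412 on the other.

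Nlrc5 (ENSMUSG00000074151, chr8:94434356-94527272, plus strand) had the lowest mean signal of the set in each of the 4 groups. In the controls of day 3 it stood at 0.0187, 0.0176 and 0.0697, from 1, 1 and 3 reads. The lasered retinas had 10.002, 0.505 and 0.814, from 441, 29 and 37 reads. Against the summed controls the ratio was 307 in lasered replicate 1 (95% exact binomial interval 130 to 949), 15.5 in replicate 2 (5.93 to 51.2) and 25.0 in replicate 3 (9.79 to 81.4), intervals that cover counting error and no spread between retinas. On the log2(value + 1) scale, which understates changes of low genes, the difference was 1.59 (SE 0.71, adjusted p = 0.234). On day 7 Nlrc5 had 13, 21 and 19 reads in controls (0.158, 0.247 and 0.298) and 76, 175 and 98 in lasered retinas (0.942, 2.46 and 1.13). Each lasered retina again lay above the controls, at ratios of 4.11 (2.86 to 5.95), 10.7 (7.85 to 14.9) and 4.94 (3.50 to 7.04). The gene did not pass the day 7 filter, and without the filter the difference was 0.98 (SE 0.25, adjusted p = 0.686).

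**Figure D3:**
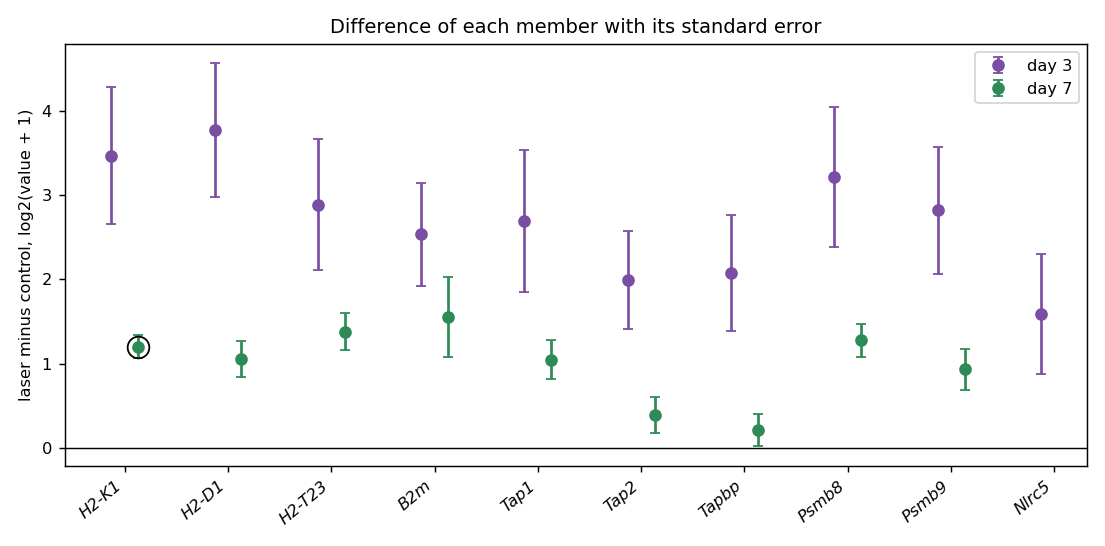
Difference between lasered and control retinas in log2(value + 1) for each gene on day 3 (purple) and day 7 (green), with bars of 1 standard error from limma and a ring around the gene that rose at an adjusted p under 0.05. Day 3 differences run from 1.59 to 3.77 with wide bars, and day 7 differences from 0.21 for Tapbp to 1.56 for B2m; Nlrc5 has no day 7 point because it did not pass the filter.

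The difference between the days was tested as an interaction over the 12 libraries. The estimate, day 7 minus day 3, was negative for each of the 10 genes, with a median of -1.75 against -0.11 for all tested genes. None passed (0 of 10 by limma, where 0% of 17611 tested genes did), and 5 of 10 were lower at an unadjusted p under 0.05, where 8.43% of all tested genes were. These were H2-D1 (-2.71, SE 0.91, adjusted p = 0.403), H2-K1 (-2.26), Tap2 (-1.61), Tapbp (-1.86) and Psmb9 (-1.89). B2m (-0.98, SE 0.86) and Nlrc5 (-0.61, SE 0.82) had the smallest estimates relative to their errors. Lasered replicate 1 of day 3 moved these values: without it the estimates of 9 tested genes stayed negative but had a median of -0.90, against -0.08 for all tested genes, and 0 passed. H2-D1 was then at -1.71, H2-K1 at -1.23, Tap1 at -0.53 and B2m at -0.18. The scale of log2(value + 1) also shrinks the estimates of low genes. With a pseudocount of 0.1 and all 12 libraries, Tap1 was at -3.08 (SE 1.09) against -1.64 in the main fit. Nlrc5 was at -1.56 (SE 1.22) against -0.61, while H2-D1 was at -2.74 against -2.71, so the order of sizes depends on the pseudocount.

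Among controls the order of the levels differed between the days, whose tables were normalised separately, so no test was made across them. On day 3 B2m came first at 86.8 ± 5.80 (SD, n = 3), followed by H2-D1 at 33.8 ± 12.7, then Tapbp and H2-K1, whose values overlapped, then H2-T23. Psmb8, Psmb9, Tap2 and Tap1 followed, each overlapping the next, and Nlrc5 was last at 0.0353 ± 0.0298. On day 7 H2-D1 came first at 100.2 ± 23.9, then Tapbp and H2-K1, which overlapped, and B2m came after them at 29.1 ± 10.997. The control signal of Tap1 was 0.241 ± 0.0778 on day 3 and 3.59 ± 0.246 on day 7, and that of Tap2 was 0.495 ± 0.272 and 9.45 ± 1.78. Day, sequencing depth and the separate tables cannot be told apart in these levels.

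Other genes of the pathway were described by lists. Their counts stand beside 20.7% of all tested genes higher at an unadjusted p under 0.05 by limma on day 3 and 3.14% on day 7. In the fit of day 3 without lasered replicate 1, 1.7% of all tested genes rose. Of 17 further class I and class I-like genes 11 were tested on day 3, where 0 passed and 8 had higher signal at an unadjusted p under 0.05 (median difference 1.33). H2-M3, which presents formylated peptides, had 3.72, 3.82 and 3.82 in controls and 17.9, 6.89 and 11.1 in lasered retinas on day 3 (1.35, SE 0.30, adjusted p = 0.0931). H2-Q6 had 0.977, 1.07 and 0.481 against 38.7, 5.36 and 5.20 (2.67, SE 0.68, adjusted p = 0.101). In the fit that leaves out lasered replicate 1, 9 of these genes were tested and 1, H2-Q6, rose (1.78, adjusted p = 0.0126), with a median of 0.55, and H2-M3 had 1.03 (adjusted p = 0.0712). On day 7, 10 of these genes were tested, 0 passed and 6 were higher at an unadjusted p under 0.05 (median 0.71), with H2-Q4 at 5.67, 7.13 and 3.85 in controls and 14.5, 23.7 and 19.0 after laser (1.62, SE 0.27, adjusted p = 0.128). Some Q genes share sequence with the H2-K1 and H2-D1 transcripts, so values of Q genes may carry an uncertainty like that of the heavy chains above. How much sequence H2-Q4, H2-Q6 and H2-M3 share with other genes was not measured.

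Partners of the loading complex include chaperones and peptide editors. The shares of all tested genes higher at an unadjusted p under 0.05 by limma were again 20.7% on day 3 and 3.14% on day 7. Without lasered replicate 1 of day 3, 1.7% of all tested genes rose. Of 13 such genes tested on day 3, 0 passed and 7 were higher at an unadjusted p under 0.05 (median 0.83), and of 11 tested on day 7 the counts were 0 and 0 (median 0.12). Tapbpl, a tapasin-related editor of peptides, had 3.09, 4.61 and 4.11 in controls and 21.5, 9.66 and 8.67 in lasered retinas on day 3 (1.43, SE 0.33, adjusted p = 0.0938). Pdia3, the thiol oxidoreductase of the loading complex, had 48.8, 68.8 and 56.8 against 170, 97.6 and 93.1 on day 3 (0.99, adjusted p = 0.103). Without lasered replicate 1 the median of the 13 genes was 0.45 and 1 rose, Tapbpl (1.052, adjusted p = 0.0484), while Pdia3 had 0.72 (adjusted p = 0.102). On day 7 Pdia3 overlapped, at 48.8, 86.9 and 53.8 against 38.8, 117 and 62.5. The inducible proteasome partners Psmb10, Psme1, Psme2 and Pomp gave 0 of 4 passing on both days, with 3 higher at an unadjusted p under 0.05 on day 3 (median 1.12) and 2 on day 7 (median 0.34). Among 16 constitutive proteasome genes 0 passed on either day, with 5 higher at an unadjusted p under 0.05 on day 3 (median 0.25) and 0 on day 7 (median 0.07). Without lasered replicate 1 of day 3 these medians were 0.63 for the inducible partners and 0.13 for the constitutive genes, as against 0.13 for all tested genes, with 0 passing in either list.

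Regulators and interferon signalling were listed in the same way. Over all tested genes 20.7% were higher at an unadjusted p under 0.05 by limma on day 3 and 3.14% on day 7. The share that rose on day 3 without lasered replicate 1 was 1.7%. Of 10 tested transcription partners of class I promoters 0 passed on day 3 and 4 were higher at an unadjusted p under 0.05 (median 0.35); on day 7 the counts were 0 and 1 of 11 (median 0.12), the 1 being Irf1. Of 12 tested genes of interferon signalling 0 passed and 7 were higher at an unadjusted p under 0.05 on day 3 (median 0.88), and on day 7 the counts were 0 and 4 of 13 (median 0.32). Irf9, a transcription factor of interferon signalling, had 4.58, 4.04 and 3.47 in controls and 169, 28.7 and 39.5 in lasered retinas on day 3 (3.56, SE 0.59, adjusted p = 0.0883) and 16.6, 16.7 and 16.4 against 30.9, 41.8 and 35.7 on day 7 (1.07, SE 0.16, adjusted p = 0.0831). Without lasered replicate 1 of day 3, 4 of 11 tested interferon signalling genes rose (median 0.36), among them Irf9 at 2.79 (adjusted p = 0.00337), and 1 of 9 transcription partners did (median 0.19), which was Irf1 at 1.56 (adjusted p = 0.00924). The ligands were at or near 0: Ifnb1, Ifna2 and Ifnl2 had a signal of 0 in the 12 libraries, and Ifng was 0 in 11 and 0.162, from 1 read, in lasered replicate 1 of day 3.

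**Figure D4:**
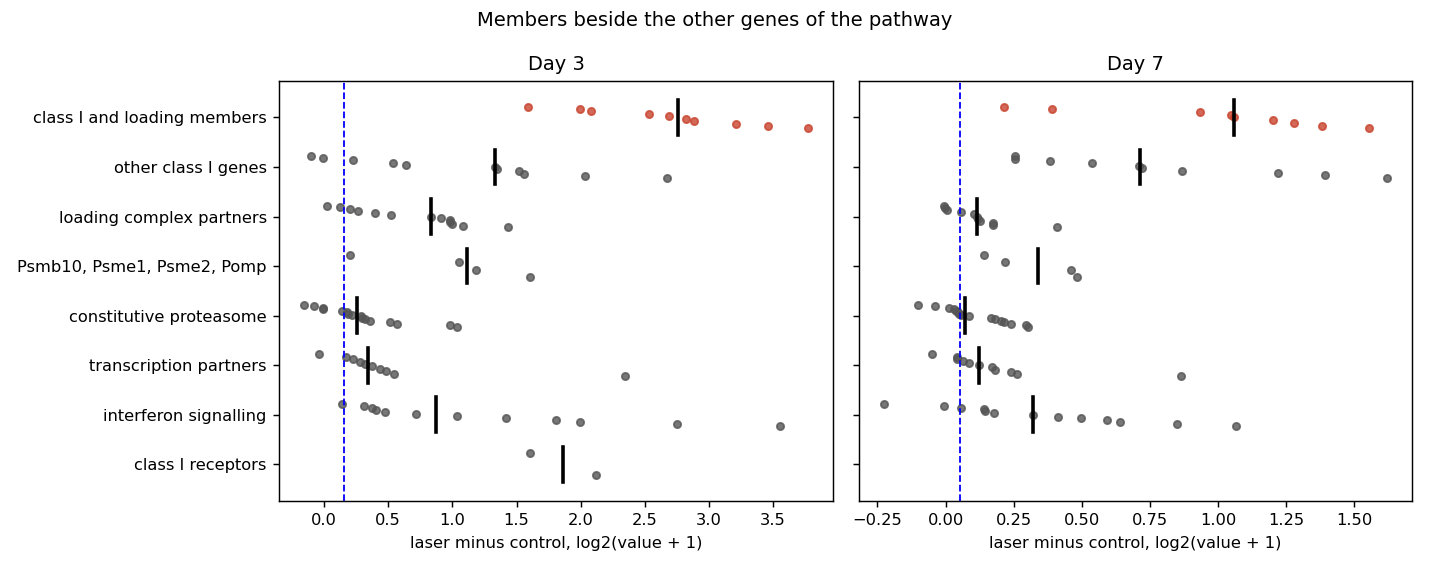
Difference between lasered and control retinas in log2(value + 1) for each tested gene (points) of the 10 described genes (red) and of other lists of the pathway (grey), on day 3 (left) and day 7 (right); black bars are list medians and the dashed line is the median of all tested genes. The red points have a median of 2.76 on day 3 and 1.06 on day 7, and the constitutive proteasome lies near the dashed line on both days; the 2 horizontal axes differ in range.

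Irf1, an interferon-inducible transcription factor of class I promoters, had the pattern most like that of the 10 genes by Pearson correlation. Across the 12 libraries, each gene centred on the mean of its day, its Pearson r with their mean was 0.996, the highest of 12899 genes compared, with a Spearman's rho of 0.909. The r was 0.988 without lasered replicate 1 of day 3 and 0.989 without the 2 libraries farthest from the median. Irf1 had 4.27, 4.88 and 3.63 in controls and 78.3, 13.6 and 15.2 in lasered retinas on day 3 (2.35, SE 0.60, adjusted p = 0.103) and 5.94, 5.78 and 5.88 against 11.3, 11.2 and 12.0 on day 7 (0.86, SE 0.18, adjusted p = 0.261). The next genes were Ifi35 (r 0.991), Shisa5 (0.991), Myd88, an adaptor of Toll-like receptors (0.990), and Litaf (0.989). By rank the order was another one, as rho was 0.944 for Ifi35, 0.937 for Shisa5 and Litaf and 0.860 for Myd88. The points share the libraries, the days and the split into lasered and control retinas, so these values describe likeness.

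**Figure D5:**
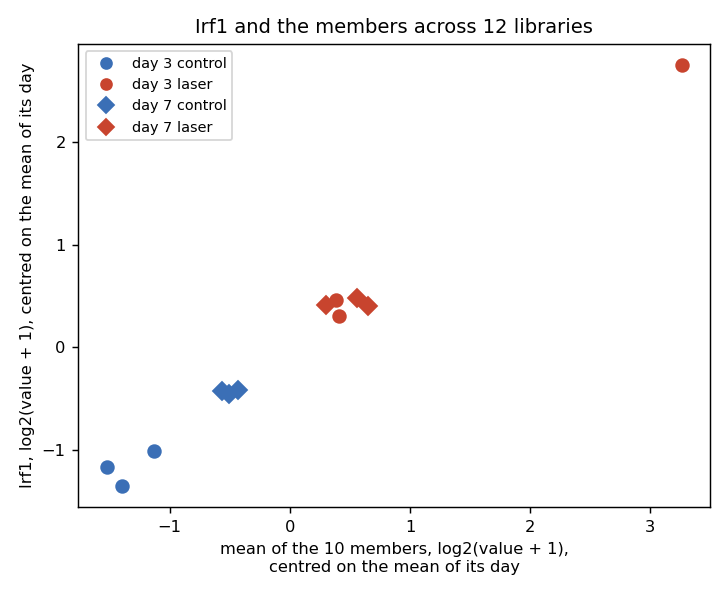
Irf1 against the mean of the 10 genes in 12 libraries, both in log2(value + 1) centred on the mean of the day; circles are day 3, diamonds day 7, blue controls and red lasered retinas. Controls lie at the lower left, lasered replicate 1 of day 3 at 3.26 and 2.75 in the upper right corner, and the other lasered retinas of both days between them.

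Most markers of microglia and macrophages moved with these genes, as did Gfap among the markers of glia. In bulk tissue more cells of a type and more RNA per cell cannot be told apart. The summed signal of 12 microglia and macrophage markers was 66.3 to 70.5 in controls and 207 to 588 after laser on day 3. Of 11 tested markers 2 rose (C1qb and Fcrls), where 0.143% of all tested genes did. On day 7 the sums were 142 to 162 against 455 to 552, and 6 of 11 rose, where 0.237% of all tested genes did. For 8 markers of infiltrating monocytes and macrophages the sum was 10.1 to 12.7 against 66.3 to 855 on day 3 (0 of 8 rising). On day 7 it was 11.9 to 16.96 against 95.02 to 136 (2 of 3 tested rising, Lyz2 and Cd68). Ccr2 was at 0 in the controls of both days. The 6 neutrophil markers summed to 0.365 to 1.27 in controls and 0.576 to 1.18 in lasered retinas on day 7, and Ly6g was at 0 in each of those 6 libraries. T cell markers summed to 0.363 to 1.52 against 0.786 to 9.63 on day 3 and to 0.892 to 1.21 against 1.08 to 1.67 on day 7, where Cd3g was at 0 in each library. The natural killer list summed to 0.478 to 0.851 against 0.638 to 2.78 on day 3 and 3.36 to 6.61 against 2.35 to 3.54 on day 7, with Ncr1 at 0 in the 6 libraries of day 7, and the B cell list to 0.416 to 1.052 against 0.800 to 2.20 and 1.13 to 1.38 against 0.964 to 1.38. The list of 13 receptors that read class I summed to 0.472 to 1.46 in controls against 2.67 to 36.7 after laser on day 3. On day 7 its sums were 0.330 to 0.748 against 1.24 to 2.03, without overlap on either day. Of these 13 genes 2 were tested on day 3, Lilrb4a and Pirb, with 0 passing, and 0 on day 7. Both were higher without overlap on day 3 (median 1.87), where 27.7% of all tested genes were. Cd8a overlapped on day 3, at 0.0872, 0.247 and 0.271 in controls and 0.106, 0.203 and 0.103 in lasered retinas. Müller glia and astrocyte markers summed to 1391 to 1590 against 1697 to 1818 on day 3 and 5220 to 5449 against 5712 to 6824 on day 7, with Gfap rising on both days, endothelial markers to 23.8 to 24.7 against 28.9 to 46.7 and 98.0 to 149 against 115 to 154, and pigment epithelium markers to 354 to 541 against 51.7 to 708 and 284 to 737 against 383 to 766. Summed rod and cone signal, given above, overlapped between the groups on day 3 and was lower after laser without overlap on day 7. Single markers of day 7 were mixed: 1 of 9 was lower and 1 higher without overlap, and 3 had a positive difference. Of the 9 tested markers 0 passed on either day, with a median of -0.79 on day 3 (-0.35 without lasered replicate 1) and -0.14 on day 7. Without lasered replicate 1, 8 of 11 microglia and macrophage markers and 3 of 3 tested monocyte and macrophage markers rose on day 3, where 1.7% of tested genes did. Csf1r, Cx3cr1 and P2ry12 (0.06) did not rise. In the same fit 2 of 8 Müller glia and astrocyte markers rose, Gfap and Vim, while Glul was at -0.28, Rlbp1 at -0.03 and Aqp4 at 0.006. Summed signal of the neutrophil and B cell lists overlapped between the groups on day 7, and that of the natural killer list was not higher after laser on that day. The part of these cell types in the class I differences was not tested.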

How the data were processed

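Retina libraries were grouped by their titles. Per the labels' protocols, libraries were made with a directional kit; the submitters' processing notes name STAR 2.7.0, edgeR 3.28.0 and mm10 and state no role for them, and no source used here gives the counting tool or whether it used strand. What the authors deposited is a length-scaled signal per gene, named TPM by the authors in 1 table per day, whose column sums differ between libraries.

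Reads were recovered by multiplying by GENCODE M21 exon length (53681 of 54367 genes have the same start and end) after undoing a factor that cycles over 6 table rows; 99.7% to 99.8% of values under 20 reads came out whole within 0.05. A count model (voom) on them was an added alternative.

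Each day was fitted with limma 3.58.1 (R 4.3.3, trended prior, two-sided) on log2(value + 1), a scale that understates the change of low genes, with genes kept at a mean signal of 1 or more, and p-values adjusted over all tested genes at 0.05; the script was tested on simulated data. Positions are those of the tables, on mm10, with strand from GENCODE M21. The members, the 17 other gene lists and the genes named were chosen with earlier results of these data known. Named were the 10 members, genes from each list that passed or had the smallest p, and the 5 most alike genes. Not every gene so chosen is reported here.

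The design text pairs the eyes of a mouse, though the labels do not say that equal numbers mark 1 mouse. On day 7, libraries numbered 1 and those numbered 2 deviated together from their group means, with correlations of 0.485 and 0.559. For number 3 the value was 0.128, below the 0.205 of lasered replicate 3 with control replicate 1. Lasered replicate 1 with control replicate 3 had 0.118, and the other unequal pairs were negative. The pairing of number 3 is therefore not shown by these values. The main fit of day 7 used no pairs. Only its replicate block, an alternative fit, took equal numbers as pairs, a choice drawn from the same libraries that the block was fitted to.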

Additional observations from a re-analysis of the deposited data

How the results depend on the processing

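No gene changed direction in any alternative. On day 3, where 0 of 10 genes passed, 2 passed with library weights (where 2.16% of all tested genes rose) and 8 in a joint fit of 12 libraries (5.67%). Leaving out 1 library gave 0 to 8, the 8 being without lasered replicate 1 (1.7%). The other alternatives gave 0, and in each of them at most 0.155% of all tested genes rose. With the replicate block, day 3 had 0 (adjusted p from 0.171 to 0.233); its same-number correlations were 0.041, 0.016 and 0.077, so those numbers were not taken as pairs. On day 7, where 1 of 9 passed, counts are given with the share of all tested genes that rose. No filter gave 0 (0.0434%) and median-of-ratios rescaling 0 (0.148%). Voom on recovered reads, chosen after seeing the data, gave 0 (0.115%) and the joint fit 0 (0.114%). The replicate block gave 3 (0.334%) and library weights 4 (0.673%). Leaving out 1 library gave 0 to 1, with 1 only without lasered replicate 2 (0.256%). The other fits that left out 1 library had at most 0.0701%. The H2-K1 call of day 7 was lost in 10 of 16 alternatives (adjusted p from 0.00316 to 1.00); with an untrended prior Psmb8 passed in its place. The cause was not tested. The interaction passed for 0 of the 10 genes in each alternative, although over all genes 147 were higher and 972 lower of 17611 with library weights, 11 and 17 with no filter and 1 and 1 with a pseudocount of 0.1. Rescaling moved the median of all genes from 0.16 to -0.03 (median of ratios) or -0.07 (quantile) on day 3. Among the 10 genes the replicate block changed no other call. Over all genes of day 3 it left 0 rising, against 24 in the main fit, so the day 3 calls of C1qb, Fcrls and Gfap were lost with it. In simulations of day 3, 43% of genes changed by 1 on the log2 scale and 100% of those changed by 2 were recovered. The simulated reads had the same fixed dispersion for all genes and no outlying library, and low genes were not changed. These shares therefore do not give the power of the day 3 fits, where lasered replicate 1 stood apart. At 1 to 3 reads, Nlrc5 in day 3 controls is at the limit of this depth.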
